A study of Homo sapiens with 4 samples.

Results

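Matrix proteases and their inhibitors were followed in a naïve human embryonic stem cell (ESC) line as 9 genes chosen by name, among 60564 gene identifiers in the count files. They are the metalloproteinases MMP2, MMP14 and MMP15, their tissue inhibitors TIMP1, TIMP2 and TIMP3, and 3 genes of plasminogen activation, SERPINE2, PLAT and PLAUR. They were taken by gene name, with no threshold on a measured value. All 9 passed the filter on low counts and were among the 22555 genes tested.

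RNA-seq had been performed on Elf1 cells, 1 line of naïve human ESCs, in 2 culture conditions with 2 biological replicates each. In 2-D culture the cells were, according to the labels, attached to plastic plates coated with Matrigel, a basement membrane extract. The study's methods describe the maintenance of the line on mouse embryonic feeder cells before. In 3-D culture single cells were enclosed in scaffolds that assembled from the polymers PEG-8-SH and PEG-8-Acr, and were kept there for 21 days. Both conditions used the same expansion medium, and neither carried a genetic change according to the labels. The geometry, the surrounding material and the handling of the cells differ together between the conditions and cannot be told apart. Counts assigned to genes summed to between 18276147 and 33833778 per library, with both 3-D libraries below both 2-D libraries. The labelled cell type was checked by its markers. LIN28A, an RNA-binding protein of pluripotent cells, was at 444 RPKM (the library-scaled count, CPM, per kilobase of exons) in each condition, and NANOG and POU5F1, core pluripotency factors, were at 36.7 and 40.5 RPKM in 2-D and 38.9 and 41.8 in 3-D. Among naïve state markers, DPPA3 and DNMT3L were at 5.77 to 9.15 RPKM, while KLF17 had 16 to 29 counts per library and DPPA5 had at most 4. DPPA3 has a near-identical copy, ENSG00000290759, over 94.2% of its transcript at 98.6% identity. How reads shared with that copy were counted is not known. NANOG, POU5F1, KLF17 and DPPA5 were not searched for copies.

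Matrix metalloproteinases are zinc enzymes that cleave collagens, laminins and other proteins around the cell. They are made as inactive precursors. MMP14 and MMP15 are membrane-bound and are activated inside the cell by furin-like convertases, and MMP14 at the cell surface activates the secreted gelatinase MMP2 with TIMP2 as the bridge between them. TIMPs otherwise block the active site of metalloproteinases. In the second protease system, the activators PLAU and PLAT turn plasminogen into plasmin, PLAUR holds PLAU at the cell surface, and SERPINE2 is a serpin that traps these activators.

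The 3 metalloproteinases share the stretch of the catalytic domain that binds the zinc ion, and it is shown here for comparison. The coding strand of GENCODE release 44 on build hg38 is given, with the codons of the 3 zinc-binding histidines in capitals.
MMP2, chr16:55491827-55491859, plus strand, exon 8: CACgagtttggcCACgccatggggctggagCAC
MMP14, chr14:22843283-22843315, plus strand, exon 5: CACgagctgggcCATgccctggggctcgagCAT
MMP15, chr16:58040563-58040595, plus strand, exon 5: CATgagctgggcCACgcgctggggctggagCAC
Of the 33 bases, MMP2 shared 27 with MMP14 and 28 with MMP15, and MMP14 shared 28 with MMP15. The stretches begin at codon 403 of the 660 of MMP2, codon 239 of the 582 of MMP14 and codon 259 of the 669 of MMP15.

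The inhibitors insert the first residues of the mature protein into that site. Those 12 codons are shown for the 3 TIMPs, with the codons of the first cysteine and of the next cysteine after it in capitals.
TIMP1, chrX:47583485-47583520, plus strand, exon 2: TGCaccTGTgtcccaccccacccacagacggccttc
TIMP2, chr17:78924975-78925010, minus strand, exon 1: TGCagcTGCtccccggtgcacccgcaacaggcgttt
TIMP3, chr22:32802071-32802106, plus strand, exon 1: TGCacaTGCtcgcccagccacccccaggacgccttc
TIMP1 and TIMP2 had 22 of the 36 bases in common, TIMP1 and TIMP3 had 24, and TIMP2 and TIMP3 had 23. For none of the 9 did at least 80% of the transcript align to an annotated transcript of another gene at 98% identity or more. The rest of the genome was not searched, so copies outside the annotated genes are not excluded.

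All 9 genes were expressed in both conditions, over a range of levels. Per length, MMP2 was the highest, at 25.4 to 29.6 RPKM over the 4 libraries. It was followed by SERPINE2 at 21.5 to 23.0, TIMP1 at 17.0 to 19.9, MMP14 at 13.1 to 15.1 and MMP15 at 9.90 to 11.7 RPKM. TIMP2 stood at 5.86 to 6.30 and TIMP3 at 2.74 to 3.18 RPKM. PLAT, at 1.22 to 1.57, and PLAUR, at 1.19 to 1.53 RPKM, were the lowest. Each gene lay above the next one in every library, so neighbours in this order did not overlap, except PLAT and PLAUR, whose ranges did.

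In the comparison of 3-D with 2-D grown cells, MMP2 rose and no other member passed the test. MMP2 was 12.5% higher in 3-D, with a 95% interval from 7.06 to 18.2%. MMP14, MMP15 and TIMP1 were 10.2 to 13.1% higher in the mean with no overlap between the conditions, and TIMP2, TIMP3, SERPINE2, PLAT and PLAUR gave no call in either direction. With edgeR's quasi-likelihood test and Benjamini-Hochberg adjustment over all tested genes, 1 of the 9 (11.1%) was called at an adjusted p below 0.05, against 7.9% of all genes tested (4.54% higher and 3.36% lower), so the share of called members was close to the background. The libraries of the conditions did not overlap for 5 of the 9, against 50.5% of all genes, and 4 of these 5 were higher in 3-D and 1 lower, against 25.4% and 25.1%. An unadjusted p below 0.05 was obtained for 4 of the 9, against 21.3%. The median log2 fold change was 0.14 over the 9 and -0.00014 over all genes, and 7 of the 9 were above 0, against 50% of all genes.

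MMP2 (ENSG00000087245.13; chr16:55389700-55506691, plus strand), the secreted gelatinase that digests type IV collagen, was at 126 and 120 CPM in the 2-D libraries and at 137 and 139 CPM in the 3-D libraries. Both 3-D libraries were above both 2-D libraries. The mean rose from 123 ± 4.52 to 138 ± 1.45 CPM (SD, n = 2 each), a log2 fold change of 0.17 (SE 0.033, adjusted p = 0.0073 with edgeR's quasi-likelihood test). The values rest on 2499 to 4344 counts per library. The call was lost without 2-D replicate 2, the lowest of the 4 libraries, where the log2 fold change was 0.13 (adjusted p = 0.15), and with library size as the sole scaling, where it was 0.11 (adjusted p = 0.064). An unnamed gene, ENSG00000279030, covers 3.70% of the exonic bases of MMP2, and its reads cannot be told apart from those of MMP2 there.

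MMP14 (ENSG00000157227.13; chr14:22836560-22849041, plus strand), the membrane-bound activator of MMP2, was at 64.8 and 60.5 CPM in 2-D and at 69.9 and 68.2 CPM in 3-D. The conditions did not overlap, and the log2 fold change of 0.14 (SE 0.042) had an adjusted p of 0.065 with edgeR's quasi-likelihood test. It was past the threshold without 3-D replicate 2, at 0.16 (adjusted p = 0.039). It was also past the threshold with no filter on low counts (adjusted p = 0.045). At the same log2 fold change of 0.14, it was not called by DESeq2 (adjusted p = 0.313) or by edgeR's likelihood ratio test (adjusted p = 0.218). The value was smaller without 2-D replicate 2, at 0.093 (adjusted p = 0.582), and with library size only, at 0.076 (adjusted p = 0.305).

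MMP15 (ENSG00000102996.5; chr16:58025754-58046901, plus strand), a second membrane-type metalloproteinase, was at 41.9 and 43.8 CPM in 2-D and at 45.5 and 49.3 CPM in 3-D. Again both 3-D libraries were the higher ones. The log2 fold change was 0.15 (SE 0.055, edgeR adjusted p = 0.141), and it was 0.20 (adjusted p = 0.025) without 3-D replicate 1. Without 3-D replicate 2 it was 0.090 (adjusted p = 0.455), and with library size only 0.081 (adjusted p = 0.440).

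**Figure D1:**
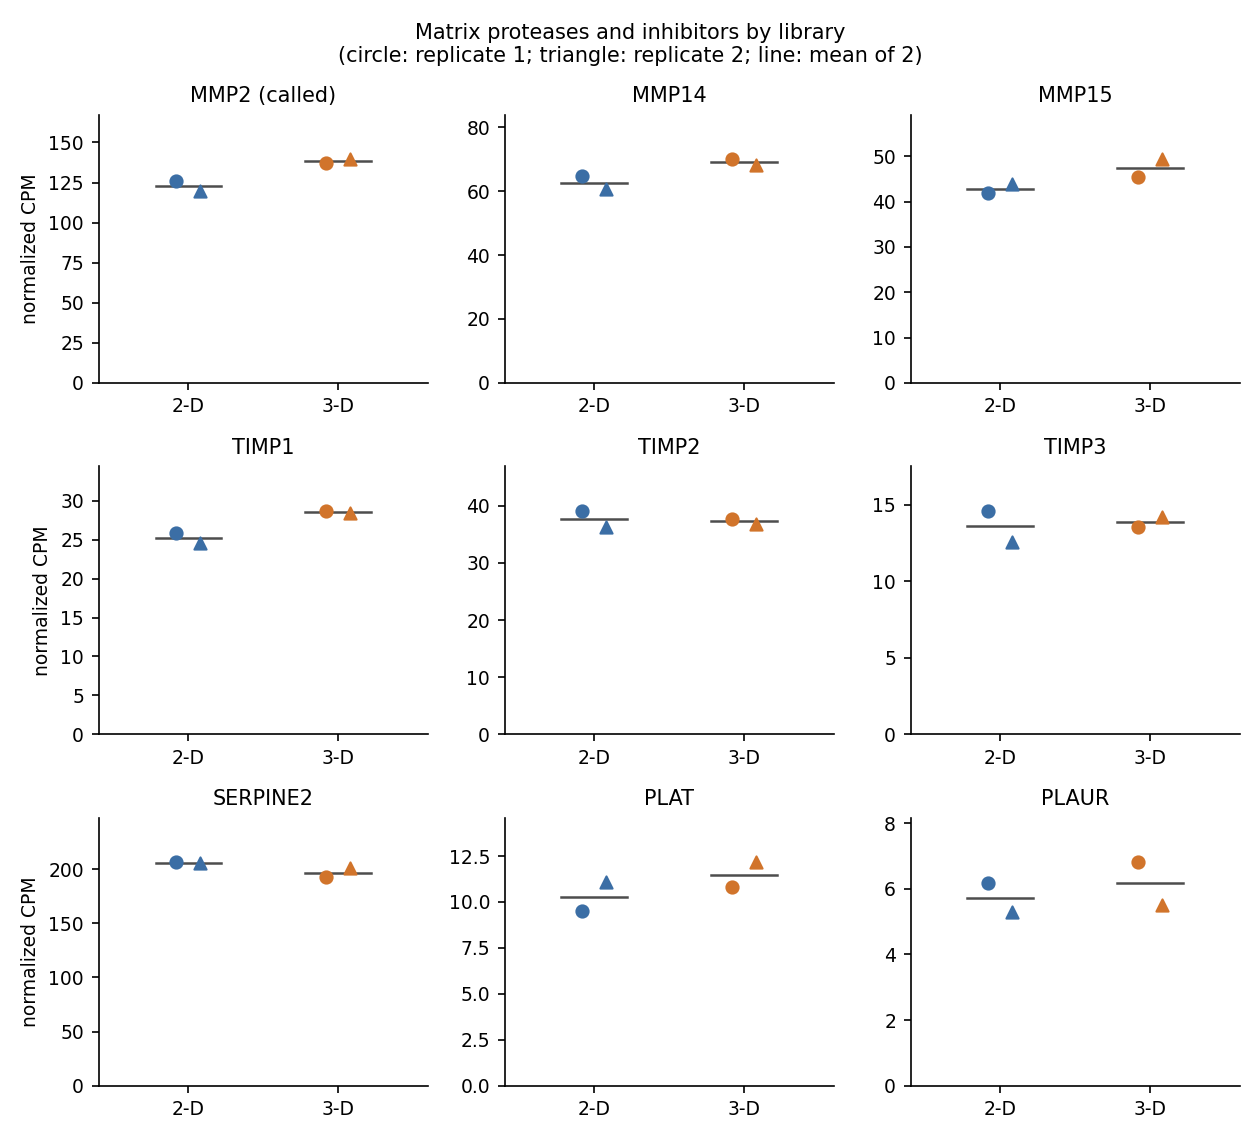
Normalized CPM of the 9 genes, on axes that start at 0, in 2-D (blue) and 3-D (orange) culture. Circles are replicate 1, triangles replicate 2 and lines the mean of 2 libraries. The 3-D libraries lie above the 2-D libraries for MMP2, MMP14, MMP15 and TIMP1, below them for SERPINE2, and overlap them for the other genes.

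Among the inhibitors, the position of the 3-D libraries differed between TIMP1 and the other two TIMPs. TIMP1 (ENSG00000102265.12; chrX:47582408-47586789, plus strand), a broad inhibitor of secreted metalloproteinases, was at 25.9 and 24.6 CPM in 2-D and at 28.7 and 28.4 CPM in 3-D. The conditions did not overlap. Its log2 fold change of 0.18 (SE 0.065) was the largest of the 9, and with edgeR's quasi-likelihood test its adjusted p was 0.130. With library size only it was 0.11 (adjusted p = 0.335). The gene lies within SYN1, which is read from the opposite strand, and shares no exonic base with it.

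TIMP2 (ENSG00000035862.12; chr17:78852977-78925387, minus strand), the partner of MMP14 in the activation of MMP2, was at 39.1 and 36.4 CPM in 2-D and at 37.7 and 36.9 CPM in 3-D. Both 3-D values lay between the 2-D values. The log2 fold change was -0.018, with a 95% interval from -0.15 to 0.11 and an edgeR adjusted p of 0.907. Other genes, ENSG00000267601 and CEP295NL, cover 9.52% of its exonic bases. TIMP3 (ENSG00000100234.11; chr22:32801705-32863041, plus strand), which is bound to the matrix, was at 14.6 and 12.6 CPM in 2-D and at 13.5 and 14.2 CPM in 3-D. Here too the 3-D values fell within the 2-D range, with a log2 fold change of 0.026 and a 95% interval from -0.18 to 0.23 (edgeR adjusted p = 0.917). The sign was not stable for either gene, since TIMP2 was at 0.035 without 2-D replicate 1, and TIMP3 was at -0.075 without 2-D replicate 2, at -0.0086 without 3-D replicate 2 and at -0.038 with library size as the sole scaling.

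Ratios within a library do not depend on its scaling. MMP2 over TIMP2, in RPKM, was 4.25 and 4.34 in 2-D and 4.81 and 4.99 in 3-D. MMP14 over TIMP2 was 2.22 and 2.23 in 2-D and 2.49 and 2.48 in 3-D. Both ratios to TIMP2 were higher in each 3-D library than in each 2-D library. The ratios among the genes with higher 3-D values stayed close to one another. MMP2 over TIMP1 was 1.496 and 1.496 in 2-D and 1.47 and 1.51 in 3-D, and MMP2 over MMP14 was 1.91 and 1.94 in 2-D and 1.93 and 2.01 in 3-D. The sum of the 3 metalloproteinases over the sum of the 3 TIMPs was 1.85 and 1.91 in 2-D and 1.91 and 1.95 in 3-D, with the second 2-D and the first 3-D library at nearly the same value. These ratios are given as values with no test.

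SERPINE2 (ENSG00000135919.13; chr2:223975045-224039318, minus strand), also called protease nexin-1, which inhibits thrombin and the plasminogen activators, was at 206 and 205 CPM in 2-D and at 193 and 201 CPM in 3-D. It was the one member with both 3-D libraries below both 2-D libraries. The log2 fold change was -0.066 (SE 0.031), with an edgeR adjusted p of 0.255 and a 95% interval of -8.88 to 0.18% in linear terms. It was past the threshold as lower without 3-D replicate 2, at -0.094 (adjusted p = 0.026), and with library size as the sole scaling, at -0.13 (adjusted p = 0.025).

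PLAT (ENSG00000104368.18; chr8:42174718-42207709, minus strand), tissue-type plasminogen activator, was at 9.50 and 11.1 CPM in 2-D and at 10.8 and 12.2 CPM in 3-D. The conditions overlapped, with a log2 fold change of 0.16, an SE of 0.11 and an edgeR adjusted p of 0.452. With 1 library left out the value ranged from 0.050, without 2-D replicate 1, to 0.27, without 2-D replicate 2, and was called in none of the 4 cases. PLAUR (ENSG00000011422.12; chr19:43646095-43670547, minus strand), the receptor of urokinase, was at 6.19 and 5.29 CPM in 2-D and at 6.81 and 5.52 CPM in 3-D. These conditions overlapped too, with a log2 fold change of 0.11, an SE of 0.14 and an edgeR adjusted p of 0.740. PLAUR was at -0.057 without 3-D replicate 1 and at 0.25 without 3-D replicate 2. PLAT had 218 to 341 and PLAUR had 99 to 213 counts per library, and the 95% intervals reached from -5.09 to 31.3% for PLAT and from -12.9 to 33.3% for PLAUR, which hold both 0 and the change seen for MMP2. The ratio of SERPINE2 to PLAT, in RPKM, was 18.9 and 16.1 in 2-D and 15.5 and 14.3 in 3-D.

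**Figure D2:**
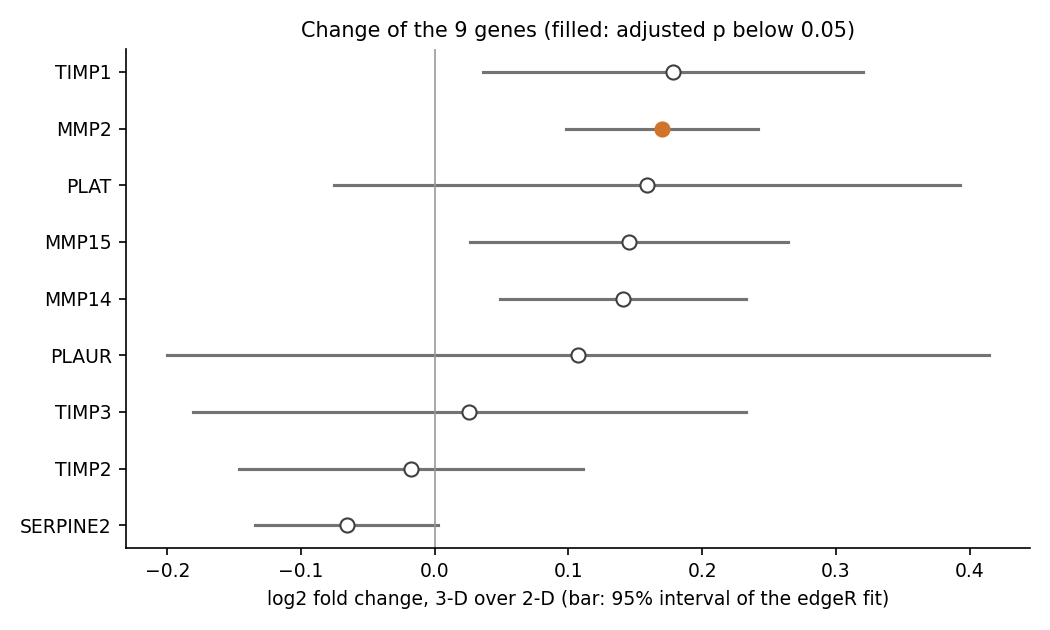
Log2 fold change of each of the 9 genes, 3-D over 2-D, with the 95% interval of the edgeR fit as a bar and 2 libraries per condition. The filled point, MMP2, has an adjusted p below 0.05. The intervals of TIMP1, MMP15 and MMP14 also lie above 0, without passing the adjustment over all genes, and those of the other 5 genes include 0.

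The calls of the 5 genes whose conditions did not overlap were followed through 11 other settings of the test. MMP2 was called higher in 9 of the 11, with a log2 fold change from 0.11 to 0.21. MMP14 was called in 3, MMP15 in 1 and TIMP1 in 0 of the 11. SERPINE2 was called lower in 2, with a log2 fold change from -0.13 to -0.035. The direction of these 5 genes was the same under each of the 11 settings. Since they were picked for no overlap between the conditions, leaving out 1 library could hardly reverse it. The other settings refit the same counts, so the shared direction is no separate support.

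**Figure D3:**
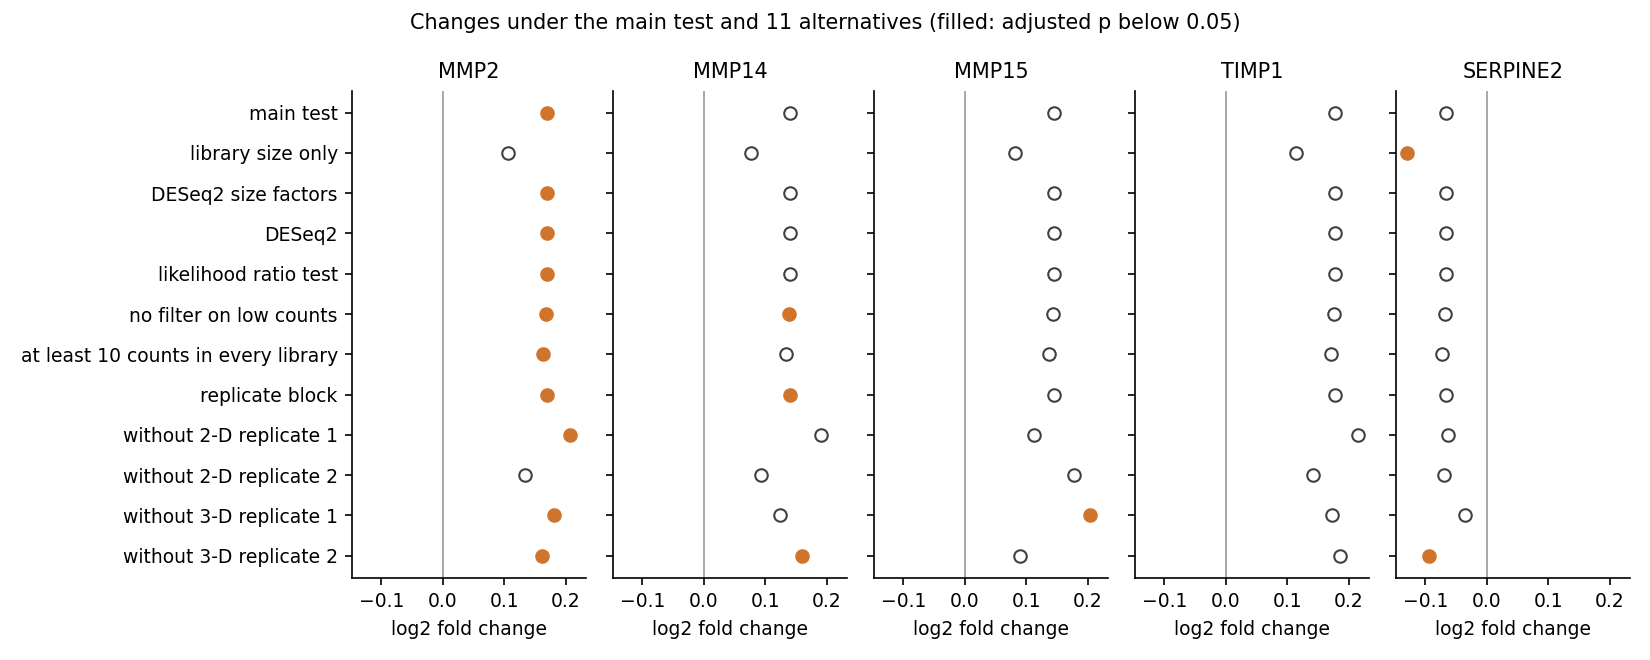
Log2 fold change, 3-D over 2-D, of MMP2, MMP14, MMP15, TIMP1 and SERPINE2 with the test as reported and with each of 11 alternatives. These genes were picked for no overlap between the conditions, which largely fixes their side of 0. Filled points have an adjusted p below 0.05. MMP2 is filled except with library size only and without 2-D replicate 2, and no gene has points on both sides of 0.

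The families around the members were described from lists of genes of the same pathways. Of 23 matrix metalloproteinases, 11 were tested, MMP2 was the 1 called, and the median over them was 0.14 on the log2 scale. MMP24, a membrane-type enzyme, stood near MMP15 in level, at 10.16 RPKM in 2-D and 10.03 in 3-D. MMP16 and MMP17, other membrane-bound members, were at 3.63 and 3.25 RPKM in 2-D and 3.43 and 3.88 in 3-D. The gelatinase MMP9 was at 0.49 and 0.55 RPKM. The 12 others had at most 12 counts in any library, among them the collagenases MMP1, MMP8 and MMP13, and 5 (MMP7, MMP8, MMP11, MMP26 and MMP27) had 0 counts in all 4 libraries. MMP24, MMP16, MMP17 and MMP9 were named after their values were seen.

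Of the 5 metalloproteinase inhibitors, which add TIMP4 and the membrane-anchored RECK to the members, none was called by edgeR's quasi-likelihood or likelihood ratio test. DESeq2 called none of those to which it gave an adjusted p, TIMP1, TIMP2 and TIMP3 among them. Of the 5, 1 (TIMP1) had an unadjusted quasi-likelihood p below 0.05, and the median log2 fold change was -0.018. TIMP4, which was named after its values were seen, had 243 to 446 counts per library and was at 11.2 RPKM in 2-D and 10.7 in 3-D, between TIMP1 and TIMP2. In the plasminogen list, 8 of 11 genes were tested and 1 was called. LRP1, an endocytic receptor that clears serpin-bound activators and metalloproteinases with TIMPs, rose from 297 and 283 CPM in 2-D to 315 and 335 CPM in 3-D, with a log2 fold change of 0.16 (SE 0.037, edgeR adjusted p = 0.017). Both 3-D libraries were above both 2-D libraries. This call was kept in 8 of the 11 other settings and lost without 2-D replicate 2, at 0.13 (adjusted p = 0.203), with library size only, at 0.099 (adjusted p = 0.129), and with the likelihood ratio test (adjusted p = 0.079). PLAU was at 3.10 and 3.48 RPKM (log2 fold change 0.17, edgeR adjusted p = 0.386). The protease precursor itself, PLG, had at most 3 counts in any library. PLAU and PLG were named after their values were seen.

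The proprotein convertases, which remove the inhibitory segment of MMP14 and MMP15, included FURIN and PCSK7 as called genes, 2 of the 4 tested. FURIN was at 53.2 and 54.4 CPM in 2-D and at 62.3 and 65.4 CPM in 3-D, and rose by a log2 fold change of 0.25 (SE 0.042, edgeR adjusted p = 0.0035). PCSK7 was at 137 and 142 CPM in 2-D and at 158 and 166 CPM in 3-D, a log2 fold change of 0.22 (SE 0.034, edgeR adjusted p = 0.0020). In both genes each 3-D library was above each 2-D library, and both were called under all 11 other settings. PCSK5 and PCSK6, at 0.29 to 0.58 RPKM in the condition means, were not called.

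Among 12 genes of serpins, Kunitz-type inhibitors and the other inhibitor A2M, all tested, 3 were called higher and 1 lower. SPINT2, a membrane inhibitor of serine proteases such as matriptase, fell from 103 and 98.3 CPM in 2-D to 86.7 and 84.5 CPM in 3-D (log2 fold change -0.24, SE 0.036, edgeR adjusted p = 0.0017), and did so under all 11 other settings. Its relative SPINT1 was at 20.8 RPKM in 2-D and 21.0 in 3-D and was not called. SERPING1, the inhibitor of complement C1, rose from 17.3 and 17.0 CPM to 22.5 and 21.5 CPM (log2 fold change 0.36, edgeR adjusted p = 0.0093), and was not called by DESeq2 (adjusted p = 0.059). TFPI, which inhibits the tissue factor pathway of clotting, rose from 23.4 and 20.2 CPM to 29.5 and 26.9 CPM (log2 fold change 0.37, edgeR adjusted p = 0.016). TFPI was not called without 2-D replicate 2, at 0.27 (adjusted p = 0.113). SERPINH1 does not inhibit proteases but is the collagen chaperone HSP47. It rose by 0.12 on the log2 scale (SE 0.031, edgeR adjusted p = 0.040), a call that was lost without 2-D replicate 1 at 0.13 (adjusted p = 0.157), without 2-D replicate 2 at 0.098 (adjusted p = 0.406), and under 4 settings that kept all libraries. The highest gene of the list was SERPINB9, an intracellular inhibitor of granzyme B, at 185 RPKM in each condition, with a log2 fold change of 0.0056 (edgeR adjusted p = 0.943).

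The other lists held few calls. None of 19 ADAMTS proteases was called by edgeR's quasi-likelihood or likelihood ratio test, with 2 at an unadjusted quasi-likelihood p below 0.05. DESeq2 called none of those to which it gave an adjusted p. ADAMTS19 was the highest of the 19 at 12.7 RPKM in 2-D and 13.0 in 3-D. Of 8 tested ADAM sheddases, which release surface proteins, ADAM19 was called at a log2 fold change of 0.11 (edgeR adjusted p = 0.047), a call that was kept in 4 of the 11 other settings. It was lost without 2-D replicate 1 (adjusted p = 0.337), without 2-D replicate 2 (adjusted p = 0.317), with library size only, at 0.047 (adjusted p = 0.423), with DESeq2 (adjusted p = 0.327), with the likelihood ratio test (adjusted p = 0.236), with no filter (adjusted p = 0.076) and with at least 10 counts in every library (adjusted p = 0.052). Of 12 tested cathepsins and cystatins, CSTB, a cytosolic cystatin, fell from 39.9 and 38.4 CPM in 2-D to 33.8 and 30.8 CPM in 3-D (log2 fold change -0.28, edgeR adjusted p = 0.018), with the call lost without 2-D replicate 1 at -0.25 (adjusted p = 0.084) and with DESeq2 at -0.28 (adjusted p = 0.063). CTSC, a lysosomal dipeptidyl peptidase, was the highest of that list at 13.2 and 13.9 RPKM. None of 6 tested procollagen and HtrA proteases was called by edgeR's quasi-likelihood or likelihood ratio test, with 2 at an unadjusted quasi-likelihood p below 0.05. DESeq2 gave no adjusted p for PCOLCE, the highest of them in RPKM, so its lack of a call is no result for this list. PCOLCE, an enhancer of procollagen cleavage, had a log2 fold change of 0.31 (edgeR adjusted p = 0.057) and was past the threshold without 3-D replicate 2, at 0.33 (adjusted p = 0.038). None of 6 tested membrane serine proteases was called by edgeR's quasi-likelihood or likelihood ratio test, with 1 at an unadjusted quasi-likelihood p below 0.05. DESeq2 called none of those to which it gave an adjusted p. PRSS8, which is held by a lipid anchor, was the highest of the 6 at 11.5 and 12.3 RPKM. Over the 10 lists without the 9 members, 82 of 107 genes were tested and 9 were called, 7 higher and 2 lower, which is 10.98% against 7.9% of all genes. Their median log2 fold change was 0.043.

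**Figure D4:**
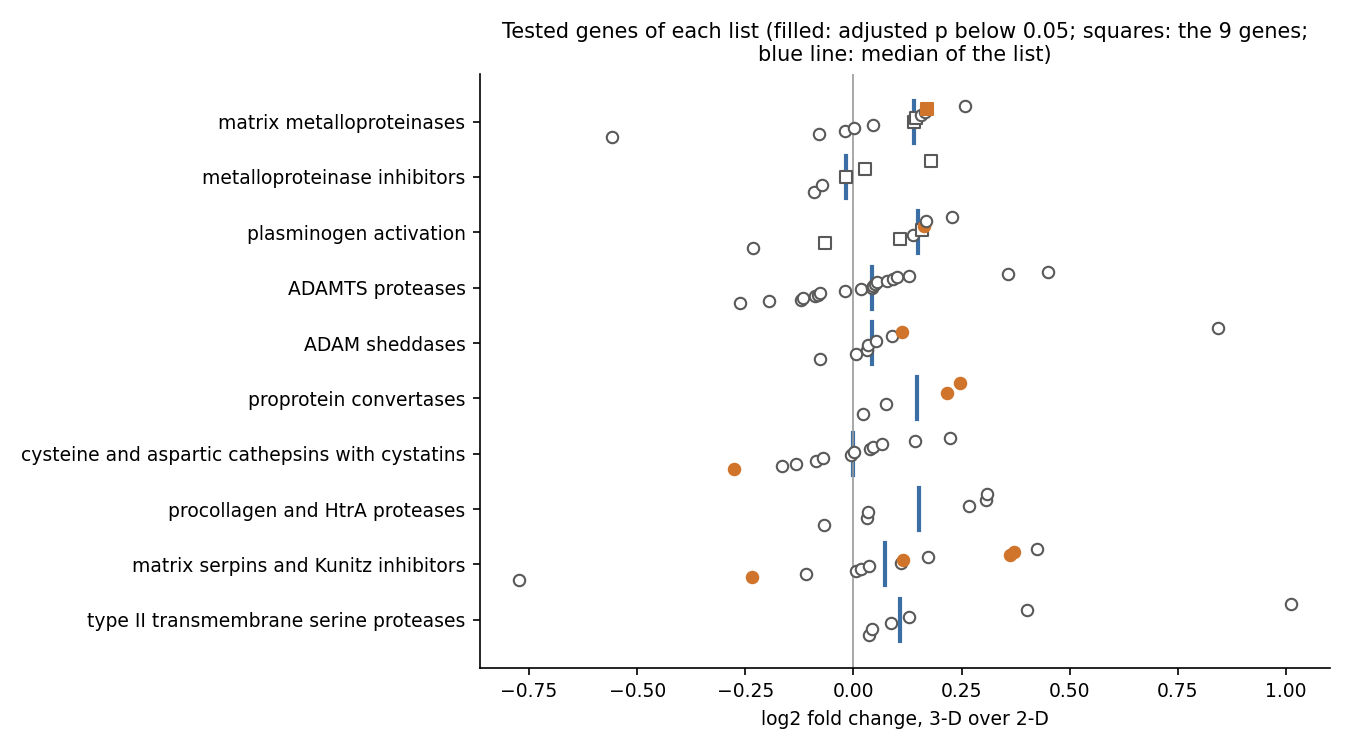
Log2 fold change, 3-D over 2-D, of every tested gene in 10 lists of matrix proteases and inhibitors, 1 point per gene and 2 libraries per condition. Squares are the 9 genes followed here, filled points have an adjusted p below 0.05 and blue lines are list medians. FURIN and PCSK7 are the filled points of the convertases, and no metalloproteinase inhibitor or ADAMTS protease is filled.

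Markers of other cells were measured beside MMP2, since fewer cells of a type and less RNA per cell cannot be told apart in bulk RNA. Of 8 fibroblast markers, 6 were tested. Against 4.54% of all genes tested, 3 of these 6 were called higher in 3-D. They were COL3A1 (log2 fold change 0.73, edgeR adjusted p = 0.0007), COL1A1 (0.29, adjusted p = 0.0008) and POSTN (0.65, adjusted p = 0.018), of which COL3A1 and POSTN were named after their values were seen. POSTN was not called without 3-D replicate 2, at 0.47 (adjusted p = 0.064). The summed level of the 8 fibroblast markers was 49.0 and 48.5 RPKM in 2-D and 50.7 and 55.1 in 3-D. Both 3-D sums were above both 2-D sums, an order that 25.4% of all genes tested had singly. The defining markers DCN and LUM had at most 6 and 17 counts in any library, and COL1A2 was at 29.7 RPKM in 2-D and 28.9 in 3-D. The part of such cells in the change of MMP2 was not tested. Of the endoderm, trophoblast, mesoderm and endothelial or blood lists, none of the 15 tested genes was called by edgeR's quasi-likelihood test. Of these 15, 2 were called by the likelihood ratio test, and 4 had an unadjusted quasi-likelihood p below 0.05. DESeq2 called none either, but it could not call genes of low mean count, to which it gave no adjusted p. The sums over the 4 libraries were 2.37 to 2.81 RPKM for endoderm, 1.25 to 1.72 for trophoblast, 51.0 to 54.5 for mesoderm and 4.28 to 4.55 for endothelial or blood markers, with the first 3 higher in both 3-D libraries than in both 2-D libraries. The sum of the pluripotency markers had the same order, at 1358.8 and 1351.9 RPKM in 2-D and 1436.8 and 1399.7 in 3-D. The sum of the naïve markers overlapped between the conditions. Higher sums in 3-D were therefore not limited to markers of other cells. CGA and VGLL1, placental markers, had 0 counts in all 4 libraries. The 2 genes called by the likelihood ratio test, named after their values were seen, were the endoderm factor GATA6 (27 to 48 counts per library, 0.26 RPKM in 2-D and 0.51 in 3-D, log2 fold change 1.001, edgeR quasi-likelihood adjusted p = 0.052) and HAND1, a factor of mesoderm and amnion (21 to 26 counts, 0.38 and 0.75 RPKM, log2 fold change 0.98, adjusted p = 0.070). GATA6 was past the quasi-likelihood threshold without 3-D replicate 2, at 1.27 (adjusted p = 0.0035), and was at 0.64 (adjusted p = 0.324) without 3-D replicate 1. GATA4 of the endoderm list was at 1.06 RPKM in 2-D and 1.21 in 3-D, and TBXT, MIXL1 and KDR of the mesoderm list were at 8.35, 16.1 and 23.1 RPKM in 2-D and 9.50, 16.8 and 24.4 in 3-D. TEK was at 4.31 and 4.35 RPKM and TWIST1 at 2.47 and 2.89. Of the pluripotency and naïve markers, L1TD1 (log2 fold change 0.21, edgeR adjusted p = 0.0011) and KLF5 (0.26, adjusted p = 0.0034) were called, both higher in 3-D, and TDGF1 was at 274 RPKM in 2-D and 294 in 3-D.

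The genes most like MMP2 over the 4 libraries were SUOX, MPV17 and ENSG00000272077. Likeness was the Euclidean distance between log2 CPM values centred on the mean of the 4 libraries, among genes that were also higher in 3-D. The distances were 0.010 for SUOX, a mitochondrial sulfite oxidase, 0.012 for MPV17, a protein of the inner mitochondrial membrane, and 0.014 for ENSG00000272077, a non-coding RNA. Their log2 fold changes were 0.17, 0.16 and 0.16, and with edgeR's quasi-likelihood test none was called (adjusted p = 0.258, 0.196 and 0.486), while 1 (MPV17) had an unadjusted p below 0.05, at 0.037.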

How the data were processed

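RNA of Elf1 cells had been depleted of ribosomal RNA and sequenced with paired ends. Per the labels and the study's methods, the authors trimmed reads with Trim Galore 0.6.3, mapped them to hg38 with HISAT2 2.1.0 and counted them on GENCODE genes with featureCounts 1.6.4. Whether strand was used and how reads with several positions were treated is not given in the sources used here, so genes that overlap others are uncertain. The deposited values are whole counts for each gene and library, without normalization and not pooled. A deposited table of counts divided by size factors, with the authors' own comparison (fold changes and p-values), was not used.

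Symbols, positions and lengths came from GENCODE release 44, which matched 60295 of the 60564 identifiers, and the other 269 held 0.121 to 0.123% of the counts of a library. Counts were fitted with edgeR 4.0.16 in R 4.3.3 (TMM normalization, its filter with a minimum count of 10, quasi-likelihood test, condition alone), with Benjamini-Hochberg adjustment over 22555 genes and a threshold of 0.05. The fit was tested on simulated data. The standard error is the size of the log2 fold change over the square root of F. RPKM is normalized CPM per kilobase of exons in GENCODE release 44, a later release than the study's methods name for the counting, so RPKM levels and their order rest on exon lengths that may differ from those counted on. Each library was kept as a replicate, since the chi-square between replicates was 2.51 (2-D) and 4.15 (3-D) per degree of freedom, above sampling noise. The biological coefficient of variation was 5.10%. The alternatives were library size only, DESeq2 size factors, DESeq2 1.42.0, edgeR's likelihood ratio test, no filter, a replicate block, a minimum of 10 counts in all libraries, and each library left out in turn, where the lone library of a condition is assumed to vary like the other condition.

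The members and lists were chosen with earlier results of these data known. Genes were named by a rule that takes the 9 members, up to 4 called genes and the highest gene of each protease list, and up to 3 markers above 1 RPKM of each marker list, largest first. Uncalled markers chosen by the rule are given by level alone. For likeness, the 3 nearest genes to the called member with the smallest p were taken, from log2 CPM with a prior count of 2. Some genes of the lists are counted but not reported singly here.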

Additional observations from a re-analysis of the deposited data

How the results depend on the processing

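Over 22555 tested genes, 1782 were called, 1024 higher and 758 lower. DESeq2 called 794, the likelihood ratio test 1139, and leaving out 1 library gave 974 to 2643, with the fewest without 2-D replicate 2. With library size only, the calls split into 514 higher and 1879 lower, and the median of all genes shifted by -0.065 on the log2 scale. Of the 9 members, 1 was called, 2 with no filter on low counts (MMP2 and MMP14), and 0 to 3 with 1 library left out. Of the 82 other protease and inhibitor genes, 9 were called, 5 with DESeq2, and 5 to 12 with 1 library left out. With library size only, TIMP3 was at -0.038, ADAMTS19 at -0.022 and SERPINB9 at -0.059, each the reverse of the sign reported. SERPINB9 was also at -0.0020 with at least 10 counts in every library. With 1 library left out, TIMP2 ranged from -0.069 to 0.035, TIMP3 from -0.075 to 0.14, PLAUR from -0.057 to 0.25 and SERPINB9 from -0.0020 to 0.016. The cause of these moves was not tested. Deviations of same-numbered libraries correlated at -0.0079, so no pairing by number was seen. A correlation over all genes cannot exclude such a pairing. With the replicate block, 2167 genes and 2 members (MMP2 and MMP14, adjusted p = 0.029 for MMP14 with edgeR's quasi-likelihood test) were called, and 9 of the other protease and inhibitor genes. DESeq2 gave no adjusted p for genes of low mean count, among them PLAT, PLAUR, PCOLCE and POSTN, and so could not call them. A lack of DESeq2 calls therefore covers only the genes that had an adjusted p. Among the members, 4 of the leave-one-out values changed sign. Of the values from the other alternatives, 58 kept their direction with no change of call, 1 changed sign, 3 gained a call and 1 lost it. The 58 include the DESeq2 values of PLAT and PLAUR, which had no adjusted p and so no side of the threshold. There were 2 libraries per condition, and PLAT and PLAUR had 341 counts or fewer.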
